A study of Mus musculus with 12 samples.

Results

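The 8 genes described here encode enzymes that make or break down glutamine, asparagine and proline or link them to glutamate and aspartate. They were Glul, Glud1, Got1, Got2, Asns, Aldh18a1, Pycr1 and Prodh, chosen by symbol. All 8 were found among the 24478 gene symbols of the deposited tables, and all 8 passed the filter on low counts that left 15606 genes for testing. Where a symbol had several transcripts, which was the case for Aldh18a1, the one with most reads summed across libraries was used.

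Poly(A) RNA of mouse thymic tissue was sequenced in 12 libraries, in 4 groups of 3. The control libraries were labelled as T cells with endogenous MYC only. The T58A lymphomas were labelled as T cells expressing only an ectopic MYC with the T58A change. The S62A lymphomas were labelled as T cells expressing only an ectopic MYC with the S62A change. The fourth group, called splenomegaly here, came from thymic masses in S62A animals that had an enlarged spleen. It was labelled as T and B cells, with both ectopic S62A and endogenous MYC. The tumours were labelled as spontaneous. The sources used here do not give the promoter that drives the ectopic MYC, the strain, the ages, or whether each library is from its own animal. The p-values therefore rest on the spread among libraries, part of which may be technical. T58 and S62 are phosphorylation sites of MYC through which the stability of the protein is controlled.

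Glutamine synthetase (Glul) joins ammonia to glutamate, and glutamate dehydrogenase (Glud1) and the aspartate aminotransferases (Got1 in the cytosol, Got2 in mitochondria) turn glutamate into 2-oxoglutarate, the aminotransferases with the formation of aspartate. Asparagine synthetase (Asns) takes the amide nitrogen of glutamine to make asparagine from aspartate. Proline is made from glutamate by pyrroline-5-carboxylate synthase (Aldh18a1) and pyrroline-5-carboxylate reductase (Pycr1), and proline dehydrogenase (Prodh) starts its breakdown. In human B lymphoma cells, MYC has been described to raise the enzymes of proline synthesis and to lower proline dehydrogenase, and the transcription factor ATF4 is known to raise asparagine synthetase when amino acids run short.

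The sequences before the transcription starts are shown for the 5 members whose letters bear on these known regulators or whose levels moved most. They are the 250 bases before the RefSeq start on GRCm38.p6, read 5′ to 3′ on the strand of the gene, which was the minus strand for all 5. Asns is at chr6:7693210-7693459, Pycr1 at chr11:120643749-120643998, Got1 at chr19:43524606-43524855, Aldh18a1 at chr19:40588464-40588713 and Prodh at chr16:18089191-18089440. Capitals mark matches to TGATGNAA, the core of the amino acid response element bound by ATF4 with C/EBP partners, on either strand, or to CACGTG, the E-box bound by MYC with MAX, which reads the same on both strands.
Asns: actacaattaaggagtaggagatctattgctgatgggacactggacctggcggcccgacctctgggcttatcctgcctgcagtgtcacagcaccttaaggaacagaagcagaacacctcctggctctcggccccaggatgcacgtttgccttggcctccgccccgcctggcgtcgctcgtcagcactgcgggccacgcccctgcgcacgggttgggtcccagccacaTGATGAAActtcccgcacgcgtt
Pycr1: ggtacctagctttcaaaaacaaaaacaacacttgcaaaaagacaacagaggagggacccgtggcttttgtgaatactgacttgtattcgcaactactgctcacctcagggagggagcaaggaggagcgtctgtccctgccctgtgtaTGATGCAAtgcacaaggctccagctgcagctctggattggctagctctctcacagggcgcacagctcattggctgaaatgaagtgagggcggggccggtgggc
Got1: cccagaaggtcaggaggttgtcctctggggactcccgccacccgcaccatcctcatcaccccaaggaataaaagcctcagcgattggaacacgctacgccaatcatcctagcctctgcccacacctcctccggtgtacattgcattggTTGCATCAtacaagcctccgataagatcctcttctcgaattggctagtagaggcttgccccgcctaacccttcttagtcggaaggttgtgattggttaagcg
Aldh18a1: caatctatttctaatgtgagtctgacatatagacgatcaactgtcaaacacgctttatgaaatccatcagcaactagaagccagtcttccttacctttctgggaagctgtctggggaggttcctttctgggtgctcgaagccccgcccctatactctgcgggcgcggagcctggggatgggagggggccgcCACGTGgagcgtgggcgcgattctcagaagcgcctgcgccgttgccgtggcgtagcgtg
Prodh: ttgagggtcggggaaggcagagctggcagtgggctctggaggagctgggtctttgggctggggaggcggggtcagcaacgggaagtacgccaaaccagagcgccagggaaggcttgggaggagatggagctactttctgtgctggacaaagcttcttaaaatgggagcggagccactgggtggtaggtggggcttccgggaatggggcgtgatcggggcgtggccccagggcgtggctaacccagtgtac

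In these 250 bases TGATGNAA was found in 3 of the 8 members and in 3.45% of 32851 promoters of the same length. The match was TGATGAAA at 23 to 16 bases before the start of Asns, TGATGCAA at 103 to 96 bases before that of Pycr1, and TTGCATCA, the motif on the other strand, at 102 to 95 bases before that of Got1. The E-box was found in Aldh18a1 only among the 8, at 59 to 54 bases before the start, and in 6.02% of all promoters. Neither set of letters was in the Prodh window, nor in those of Glul, Glud1 and Got2. A match describes the letters only, and the 2 motifs did not overlap each other.

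Reads per library, summed over the transcript used for each gene symbol, ranged from 9577373 to 22437969. Levels are given as CPM, read counts relative to the size of the library after scaling by TMM factors, and changes are log2 fold changes with standard errors from edgeR's quasi-likelihood test, in which a gene passed at a Benjamini-Hochberg adjusted p under 0.05. The mouse Myc gene was at 79.9 to 85.5 CPM in the controls, 134 to 159 in T58A lymphoma, 157 to 203 in S62A lymphoma and 84.2 to 99.98 in splenomegaly. It rose in T58A lymphoma (0.79 ± 0.13, adjusted p = 0.000876) and in S62A lymphoma (1.06 ± 0.13, adjusted p = 0.000109), while in splenomegaly its value was 0.15 ± 0.13 (adjusted p = 0.347). Whether these reads come from the ectopic MYC, the endogenous gene or both cannot be told from the counts. The cell makeup moved with the groups. The summed CPM of 12 T cell markers was 12874 to 13339 in controls, 4921 to 6778 in T58A lymphoma, 3016 to 6680 in S62A lymphoma and 1193 to 1272 in splenomegaly. The sum of 8 plasma cell markers was 284 to 340, 372 to 2782, 184 to 838 and 16527 to 26816 in the same order, and that of 12 macrophage markers was 665 to 782, 2260 to 3561, 1970 to 3184 and 4268 to 7755. The sum of 10 thymic epithelium markers was 2374 to 2641 in controls and at most 207 elsewhere. The third control stood apart by fat genes: its 8 adipocyte markers summed to 1207 CPM against 125 and 164 in the other controls. The same sum was 177 to 560 CPM in T58A lymphoma, 163 to 466 in S62A lymphoma and 291 to 412 in splenomegaly. Of all these markers only Elane, a granulocyte gene, was at 0 in a whole group, S62A lymphoma. In bulk tissue, fewer cells of a type and less RNA per cell cannot be told apart, and the part of these shifts in the results was not tested. Library titles carried the codes G, G and H in the controls, H in all T58A lymphomas and I in all S62A libraries, so that this code and the S62A groups cannot be told apart.

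Against control, the members that make proline, asparagine and aspartate were mostly higher in all 3 groups with mutant MYC, and Prodh was lower in all 3. In T58A lymphoma 4 members rose, 1 fell and 3 did not pass; over all genes tested, 18.8% rose and 17.4% fell. In S62A lymphoma 6 rose, 1 fell and 1 did not pass, against 21.9% and 22.2% of all genes. In splenomegaly 6 rose, 1 fell and 1 did not pass, against 22.9% and 26.3% of all genes. The median log2 fold change of the members was 0.55, 0.93 and 1.15 in these comparisons, and that of all genes was 0.01, 0.00 and -0.08. The 3 comparisons share the same controls, so their results are not independent of each other. Pycr1, Asns, Got1 and Got2 were the 4 that rose in T58A lymphoma, Glud1 and Aldh18a1 passed in the S62A groups as well, and Glul passed in none.

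**Figure D1:**
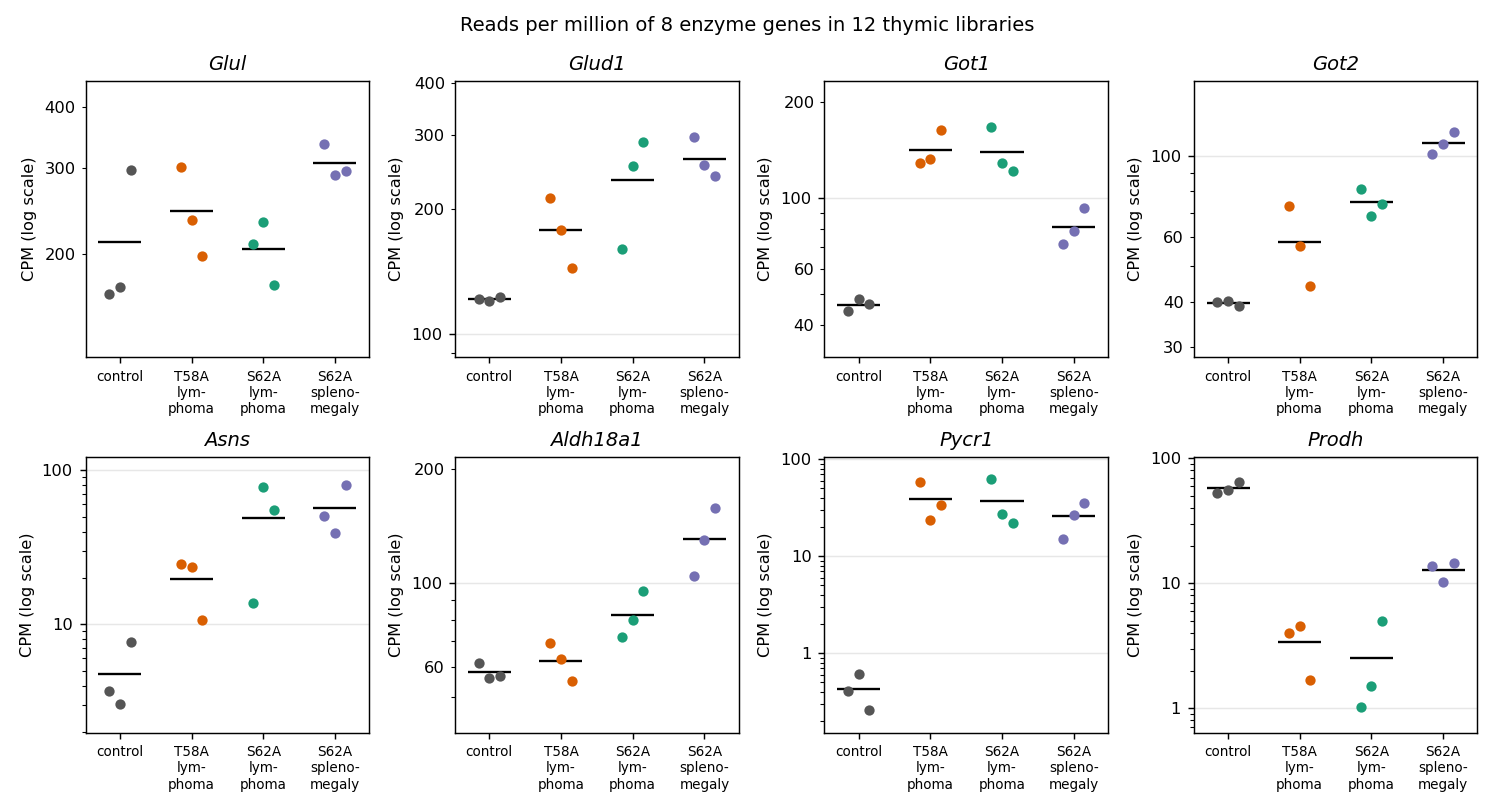
Level of each enzyme gene in CPM (log scale, range set per panel) by group; each point is a library and the line is the mean of 3. Pycr1 lies under 1 CPM in every control and from 15.0 to 62 elsewhere, Prodh lies from 52.4 to 64.4 CPM in controls and at most at 14.5 elsewhere, and Glul overlaps between most groups.

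**Figure D2:**
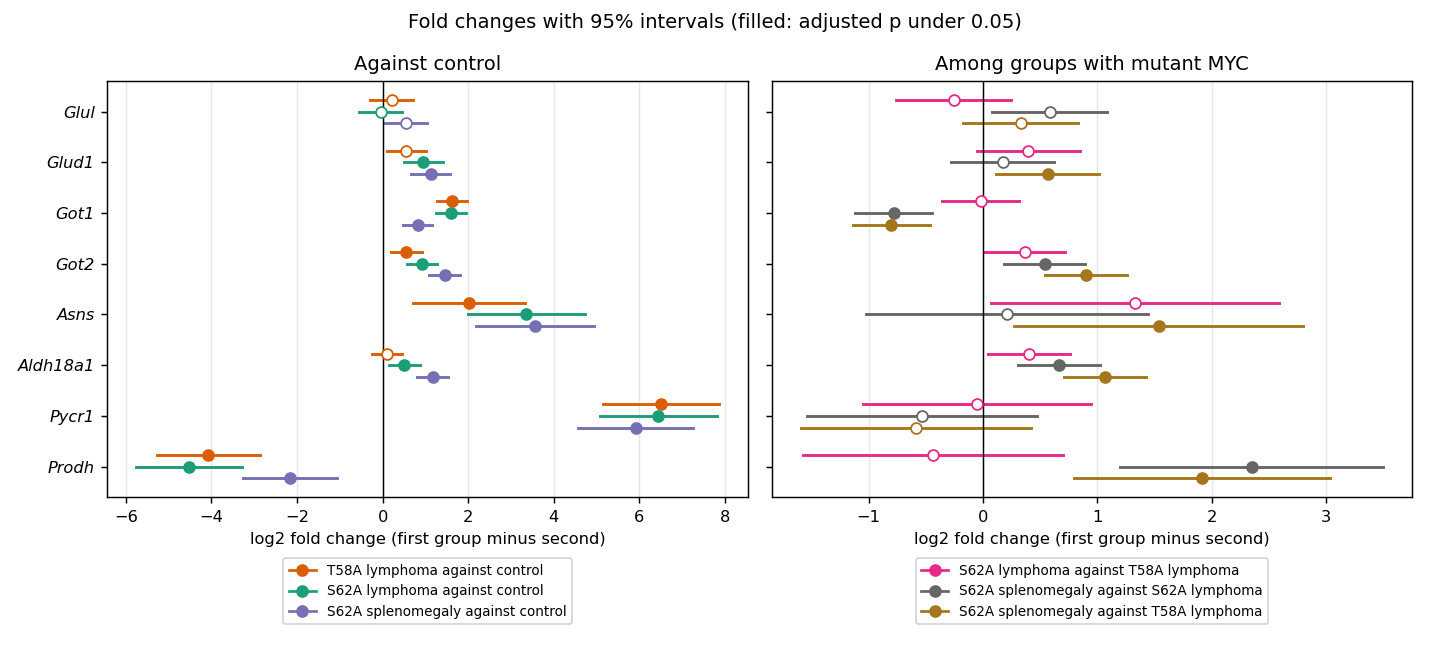
Log2 fold changes of the 8 members with 95% intervals from edgeR's quasi-likelihood fit, against control (left) and among the groups with mutant MYC (right); filled points passed at an adjusted p under 0.05 and the 2 panels have different scales. On the left Pycr1 lies at 5.91 to 6.50, Asns at 2.03 to 3.56 and Prodh at -4.52 to -2.17, and no S62A against T58A lymphoma point is filled on the right.

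Pycr1 (NM_144795, minus strand of chromosome 11, 120497026 to 120504984 on mm9), which makes proline in mitochondria, moved from near absence to moderate levels. It was at 0.413, 0.606 and 0.260 CPM in the controls, which is 8, 11 and 6 reads. It was at 58.4, 23.6 and 33.7 CPM in T58A lymphoma, at 62, 27.3 and 22.2 in S62A lymphoma and at 15.0, 26.8 and 35.3 in splenomegaly. Every library with mutant MYC lay above every control, and the 3 groups with mutant MYC overlapped one another. The change was 6.50 ± 0.62 in T58A lymphoma (adjusted p = 3.64e-05), 6.45 ± 0.62 in S62A lymphoma (adjusted p = 2.5e-05) and 5.91 ± 0.61 in splenomegaly (adjusted p = 2.5e-05). Since the controls held 25 reads in all, the ratios of pooled reads carry wide 95% counting intervals: 90.8-fold (61.3 to 141) in T58A lymphoma, 85.9-fold (58 to 133) in S62A lymphoma and 54.7-fold (36.8 to 84.9) in splenomegaly. These intervals cover counting error only. The call held in each comparison with control when any 1 library was left out, with changes of 5.63 to 6.82. In S62A lymphoma the change was 5.86 without library 1, the highest of that group.

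Prodh (NM_011172, minus strand of chromosome 16, 18071819 to 18089283), the mitochondrial enzyme that oxidises proline, went the other way. The controls held 52.4, 55.9 and 64.4 CPM. T58A lymphomas held 3.98, 4.53 and 1.67 CPM, from 69, 85 and 29 reads, and S62A lymphomas held 1.02, 1.51 and 5.0 CPM, from 16, 21 and 75 reads. Splenomegaly lay between, at 13.6, 10.3 and 14.5 CPM, and did not overlap the controls or either lymphoma group. Mean CPM was 17.0-fold lower than control in T58A lymphoma (-4.08 ± 0.55, adjusted p = 0.000291), 22.9-fold lower in S62A lymphoma (-4.52 ± 0.56, adjusted p = 0.000132) and 4.50-fold lower in splenomegaly (-2.17 ± 0.50, adjusted p = 0.00433). Without S62A lymphoma 3, the library with 5.0 CPM, the change in S62A lymphoma was -5.51 (adjusted p = 2.39e-05). Splenomegaly was higher than S62A lymphoma by 2.35 ± 0.52 (adjusted p = 0.00303), or 3.34 without S62A lymphoma 3, and higher than T58A lymphoma by 1.91 ± 0.51 (adjusted p = 0.0106). Markers of thymic epithelium fell along with Prodh, 6 of 10 in T58A lymphoma, 10 of 10 in S62A lymphoma and 8 of 10 in splenomegaly. T cell markers fell as well, 6, 7 and 11 of 12 in the same order, where 17.4%, 22.2% and 26.3% of all genes fell. The epithelium markers summed to 133 to 207, 30.1 to 51.0 and 90.5 to 107 CPM in that order, while Prodh was highest of these groups in splenomegaly. The part of either cell type in the fall of Prodh was not tested.

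Aldh18a1 (NM_019698, minus strand of chromosome 19, 40624747 to 40662953) catalyses the first step from glutamate to proline. Its levels were 61.3, 56.0 and 56.6 CPM in controls and 69.2, 62.8 and 55.1 in T58A lymphoma, which overlapped. They were 71.9, 79.5 and 95.4 CPM in S62A lymphoma and 104, 130 and 157 in splenomegaly, and these 2 groups overlapped neither each other nor the rest. Splenomegaly was above control by 1.17 ± 0.16 (adjusted p = 0.000195), above T58A lymphoma by 1.07 ± 0.16 (adjusted p = 0.000461) and above S62A lymphoma by 0.67 ± 0.16 (adjusted p = 0.00514). S62A lymphoma was above control by 0.51 ± 0.16 (adjusted p = 0.0264), and this call was lost without control 1, 2 or 3 or without S62A lymphoma 3 (0.39 to 0.54, adjusted p = 0.0548 to 0.0884). T58A lymphoma differed from control by 0.11 ± 0.16 (adjusted p = 0.641). Among the members that make or break down proline, Pycr1 and Prodh thus passed in T58A lymphoma and Aldh18a1 did not.

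Asns (NM_012055, minus strand of chromosome 6, 7625171 to 7643182) was low in controls, at 3.66, 3.03 and 7.62 CPM. It was at 24.7, 23.4 and 10.6 CPM in T58A lymphoma, at 13.8, 78.4 and 55.1 in S62A lymphoma and at 50.7, 39.3 and 79.9 in splenomegaly. Every library with mutant MYC was above every control, but the S62A lymphomas were spread widely and their library 1 lay among the T58A lymphomas. Asns rose by 3.35 ± 0.62 in S62A lymphoma (adjusted p = 0.00155) and by 3.56 ± 0.63 in splenomegaly (adjusted p = 0.000866). The rise of 2.03 ± 0.60 in T58A lymphoma (adjusted p = 0.0214) did not pass without control 1 or 2 or without T58A lymphoma 1 or 2 (adjusted p up to 0.0832), nor with control 3 as the lone control, the library that shares the title code of the T58A lymphomas (1.36, adjusted p = 0.372). Splenomegaly was above T58A lymphoma by 1.53 ± 0.58 (adjusted p = 0.0485), a call that leaving out any 1 of the 6 libraries ended (1.23 to 1.74, adjusted p = 0.054 to 0.148). S62A and T58A lymphoma differed by 1.33 ± 0.57, with a 95% interval of 0.07 to 2.59 and an adjusted p of 0.194.

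The 2 aspartate aminotransferases moved in different proportions. Cytosolic Got1 (NM_010324, minus strand of chromosome 19, 43574243 to 43599095) was at 44.0, 48.1 and 46.5 CPM in controls, 129, 133 and 164 in T58A lymphoma, 168, 129 and 122 in S62A lymphoma and 72.0, 78.7 and 93.3 in splenomegaly. The lymphomas lay above splenomegaly, and splenomegaly above control, with no overlap. Got1 rose by 1.62 ± 0.16 in T58A lymphoma (adjusted p = 3.9e-05), 1.6 ± 0.16 in S62A lymphoma (adjusted p = 2.83e-05) and 0.82 ± 0.15 in splenomegaly (adjusted p = 0.00134). It was lower in splenomegaly than in S62A lymphoma (-0.78 ± 0.15, adjusted p = 0.00142) and than in T58A lymphoma (-0.80 ± 0.15, adjusted p = 0.00172). The lymphomas differed from each other by -0.02 ± 0.15, with an interval of -0.36 to 0.31.

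Mitochondrial Got2 (NM_010325, minus strand of chromosome 8, 98388037 to 98412265) had its highest levels in splenomegaly instead. Controls held 39.8, 40.1 and 38.8 CPM, T58A lymphomas 73.1, 56.9 and 44.2, S62A lymphomas 81.5, 68.5 and 74.1, and splenomegaly 101, 108 and 117. The T58A and S62A lymphomas overlapped, and no other pair of groups did. Got2 rose by 1.45 ± 0.16 in splenomegaly (adjusted p = 4.7e-05) and by 0.92 ± 0.16 in S62A lymphoma (adjusted p = 0.00117). Its rise in T58A lymphoma was 0.55 ± 0.16 (adjusted p = 0.0208) and did not pass without control 1, 2 or 3 or without T58A lymphoma 1 (0.35 to 0.56, adjusted p = 0.0618 to 0.0813), nor with control 3 alone (0.58, adjusted p = 0.225). Splenomegaly was above T58A lymphoma by 0.90 ± 0.16 (adjusted p = 0.00123) and above S62A lymphoma by 0.54 ± 0.16 (adjusted p = 0.0154), the latter missing the threshold without S62A lymphoma 2 (0.48, adjusted p = 0.056).

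Within each library, the FPKM of Got2 over that of Got1 compares the 2 forms per length and does not depend on the scaling of the library. The ratio was 0.789, 0.727 and 0.728 in controls, 0.494, 0.374 and 0.236 in T58A lymphoma, 0.423, 0.463 and 0.531 in S62A lymphoma and 1.22, 1.20 and 1.09 in splenomegaly. Got1 had the higher FPKM in every control and lymphoma library and Got2 in every splenomegaly library. The 4 groups differed by an exact permutation test over 369600 assignments of the libraries (p = 0.000195, 0.000584 after adjustment over the 3 within-library measures computed), and p stayed at or below 0.000649 with any 1 library left out. Plasma cell and B cell markers were highest in splenomegaly, where 8 of 8 and 10 of 10 rose against control. Endothelium markers (8 of 8) and macrophage markers (11 of 12) rose there too, where 22.9% of all genes rose. The 10 B cell markers summed to 1925 to 2681 CPM in splenomegaly and to at most 446 elsewhere. The 8 endothelium markers summed to 559 to 876 CPM in splenomegaly and to at most 366 elsewhere. The part of these cell types in this ratio was not tested.

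**Figure D3:**
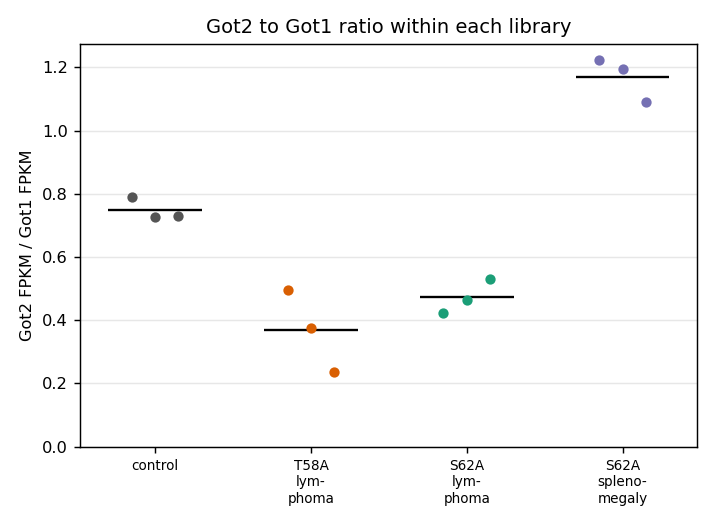
FPKM of Got2 over FPKM of Got1 within each of the 12 libraries, by group; points are libraries and lines are means of 3. The ratio is above 1 in splenomegaly only (1.09 to 1.22) and is lowest in T58A lymphoma 3 (0.236).

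Glud1 (NM_008133, plus strand of chromosome 14, 35123913 to 35158219) releases ammonia from glutamate in mitochondria. It was at 121, 120 and 123 CPM in controls, 212, 178 and 144 in T58A lymphoma, 160, 253 and 290 in S62A lymphoma and 298, 254 and 239 in splenomegaly. All libraries with mutant MYC were above all controls. The rise was 0.95 ± 0.21 in S62A lymphoma (adjusted p = 0.00384) and 1.12 ± 0.21 in splenomegaly (adjusted p = 0.00116). The value in T58A lymphoma was 0.55 ± 0.21 (adjusted p = 0.0547), which passed without T58A lymphoma 3 (0.69, adjusted p = 0.0349). Splenomegaly was above T58A lymphoma by 0.57 ± 0.21 (adjusted p = 0.042), but not without T58A lymphoma 2 or 3 or splenomegaly 1 or 2 (adjusted p up to 0.146).

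Glul (NM_008131, plus strand of chromosome 1, 155747059 to 155756853), the enzyme that makes glutamine, was the one member that passed in no comparison with control. It was at 166, 172 and 297 CPM in controls, 301, 236 and 198 in T58A lymphoma, 210, 232 and 173 in S62A lymphoma and 336, 291 and 296 in splenomegaly. The high control is the one with the highest sum of fat genes, and it alone made the controls overlap splenomegaly. In every group the library with the highest sum of adipocyte markers also had the highest Glul level. The part of fat tissue in these levels was not tested. The changes were 0.21 ± 0.23 in T58A lymphoma (adjusted p = 0.501), -0.05 ± 0.23 in S62A lymphoma (adjusted p = 0.888) and 0.54 ± 0.23 in splenomegaly (adjusted p = 0.0727, 95% interval 0.03 to 1.04). Without control 3 the difference of splenomegaly was 0.86 (adjusted p = 0.00622) and that of S62A lymphoma turned positive, at 0.28 (adjusted p = 0.28).

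Between the S62A and T58A lymphomas no member passed by edgeR's quasi-likelihood test, where 0.859% of all genes were higher and 2.29% lower in S62A lymphoma. At an unadjusted p under 0.05 there were 3 members, Got2, Asns and Aldh18a1, each with the higher mean in S62A lymphoma. Over all genes tested, 3654 of 15606 had an unadjusted p under 0.05 in this comparison. DESeq2, limma-voom, limma on FPKM and the fit of these 2 groups alone also called 0 members. The interval for Pycr1 was -1.05 to 0.95. The median log2 fold change of the members was 0.17 and that of all genes -0.01.

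Splenomegaly differed from S62A lymphoma in 4 members: Got2, Aldh18a1 and Prodh were higher and Got1 lower, and the background was 25.6% of genes higher and 28.6% lower. Against T58A lymphoma, 5 members were higher (Glud1, Got2, Asns, Aldh18a1 and Prodh) and Got1 was lower, with a background of 20.5% and 24.6%. The share of genes that passed was thus large in both, and proliferation markers were lower in splenomegaly than in S62A lymphoma for 6 of 8 genes and than in T58A lymphoma for 5 of 8. Pycr1 differed by -0.53 ± 0.46 from S62A lymphoma (adjusted p = 0.341) and by -0.59 ± 0.46 from T58A lymphoma (adjusted p = 0.316). Glul differed by 0.58 ± 0.23 from S62A lymphoma (adjusted p = 0.0505) and by 0.33 ± 0.23 from T58A lymphoma (adjusted p = 0.264). The first of these passed under 6 of the other settings, DESeq2 among them (0.66, adjusted p = 0.0168), so that 5 members differed there. Asns and Glud1 did not differ from S62A lymphoma past the threshold, at 0.21 ± 0.56 (adjusted p = 0.776) and 0.17 ± 0.20 (adjusted p = 0.495).

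Per length, the order of the members changed between groups. In controls Glul had the highest mean FPKM (87.0 ± 29.5, SD, n = 3), followed by Glud1 (47.5 ± 0.263) and Prodh (34.0 ± 3.32), and Pycr1 was last (0.171 ± 0.0708). In both lymphoma groups Prodh was last, at 1.96 ± 0.871 FPKM in T58A and 1.39 ± 1.20 in S62A lymphoma, and Got1 had moved to the second place, at 84.6 ± 12.3 and 79.2 ± 13.5. In S62A lymphoma Glud1 (85.7 ± 24.9), Got1 and Glul (79.1 ± 11.9) lay within one SD of each other. In splenomegaly Glul (117 ± 7.60) and Glud1 (95.7 ± 10.1) led, Got2 (53.4 ± 4.10) stood above Got1 (45.8 ± 6.10), and Pycr1 (9.57 ± 3.81) and Prodh (7.01 ± 1.07) came last within one SD of Pycr1.

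For each member the 3 genes with the most similar profile over the 12 libraries were taken as those with the smallest root mean square difference of centred log2 CPM. Genes with placeholder symbols, such as Gm or Rik, were not considered. For Got1 they were Xpot (0.13), Papd4 (0.16) and Ddx21 (0.18), where Got1 itself varied by 0.67 about its mean. For Aldh18a1 they were Arcn1 (0.15), Arf4 (0.15) and Scfd1 (0.16), and for Got2 Colgalt1 (0.15), Atp2a2 (0.15) and Nfxl1 (0.17). Glud1 was closest to Tmem168 (0.12), Blvra (0.17) and Bmt2 (0.18), and Glul to Kif1b (0.20), Mcur1 (0.21) and Mpv17 (0.22). Asns was nearest to Pecr (0.50), Clec7a (0.70) and Cd14 (0.76) against its own 1.5. Pycr1 was nearest to Plekha8 (0.93), Il9r (0.95) and Marco (0.96) against 2.27, and Prodh to Synm (0.49), Cds1 (0.54) and Mreg (0.59) against 1.83.

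Of 32 other genes of these pathways 30 were tested; Prodh2 and Got1l1 were too low. Against control, 14 rose and 5 fell in T58A lymphoma, 15 and 6 in S62A lymphoma, and 13 and 3 in splenomegaly, with medians of 0.48, 0.58 and 0.37. The genes that rose were 46.7%, 50% and 43.3% of those tested and the genes that fell 16.7%, 20% and 10%, beside the 18.8%, 21.9% and 22.9% that rose and the 17.4%, 22.2% and 26.3% that fell over all genes. Oat, which links ornithine to proline and glutamate, rose by 1.70 ± 0.22 in T58A lymphoma (adjusted p = 0.000208). It passed as higher in S62A lymphoma and splenomegaly as well (1.37 and 1.08, adjusted p = 0.000529 and 0.00166). Aldh4a1, the step of proline breakdown after Prodh, fell in T58A lymphoma (-0.80 ± 0.21, adjusted p = 0.0122), S62A lymphoma (-0.96 ± 0.21, adjusted p = 0.00391) and splenomegaly (-1.21 ± 0.21, adjusted p = 0.000809).

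Genes that use the products of the members rose in several cases. Nars, which loads asparagine onto its transfer RNA, rose by 0.99 ± 0.11, 1.09 ± 0.11 and 1.56 ± 0.11 in T58A lymphoma, S62A lymphoma and splenomegaly (adjusted p = 7.67e-05, 2.84e-05 and 2.47e-06). Of the enzymes that take glutamine nitrogen for nucleotides, Cad rose by 1.32 ± 0.20 and Ctps by 1.02 ± 0.16 in T58A lymphoma (adjusted p = 0.000619 and 0.000797), and Ctps by 1.35 ± 0.16, Gmps by 1.24 ± 0.15 and Ppat by 1.18 ± 0.15 in S62A lymphoma (adjusted p = 0.000109, 0.000108 and 0.000158). Cad passed as higher in S62A lymphoma too (1.56, adjusted p = 0.000167). Gmps and Ppat did so in T58A lymphoma (0.90 and 0.83, adjusted p = 0.000946 and 0.00175). Cad and Gmps were also higher in splenomegaly (0.66 and 0.55, adjusted p = 0.0179 and 0.00959). Ctps and Ppat did not pass there (0.35 and 0.10, adjusted p = 0.0956 and 0.606). Ctps2, the second CTP synthase, was lower in T58A lymphoma (-0.50 ± 0.15, adjusted p = 0.0241; not passed without control 1 or 2 or T58A lymphoma 3, adjusted p up to 0.0849) and in S62A lymphoma (-0.54, adjusted p = 0.0137). In splenomegaly Gfpt1, which takes glutamine nitrogen for amino sugars, rose by 1.36 ± 0.24 (adjusted p = 0.000773) and Asnsd1 by 1.0 ± 0.14 (adjusted p = 0.000153). Gfpt1 also passed in T58A and S62A lymphoma (0.73 and 0.98, adjusted p = 0.0293 and 0.00623). So did Asnsd1 (0.44 and 0.55, adjusted p = 0.0246 and 0.00691). Ass1, which joins aspartate to citrulline, fell in S62A lymphoma (-2.20 ± 0.33, adjusted p = 0.000406) and rose in splenomegaly (1.96 ± 0.31, adjusted p = 0.000435). It was also the one pathway gene that passed between the lymphomas, with the lower level in S62A lymphoma (-2.24, adjusted p = 0.0165).

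Other genes that fell included Pepd, which frees proline from peptides, in T58A lymphoma (-0.59 ± 0.15, adjusted p = 0.0114, and 0.0584 without control 3) and S62A lymphoma (-0.85 ± 0.15, adjusted p = 0.00126) and the alanine aminotransferase Gpt in splenomegaly (-1.27 ± 0.29, adjusted p = 0.00383). The asparaginase Aspg passed as lower in all 3 groups, at an adjusted p of 0.023, 0.00642 and 0.0201, but its control level rested on few reads, with 9.27 CPM in control 3 and 1.91 and 1.21 in the others. Without control 3 it did not pass in T58A lymphoma or splenomegaly, where other left-out libraries also ended the call (adjusted p up to 0.11 and 0.0992). It had 273 reads in the controls, 7 in T58A lymphoma, 0 in S62A lymphoma and 6 in splenomegaly. This is 35.0-fold lower in T58A lymphoma (95% counting interval 16.8 to 88.0), 34.6-fold lower in splenomegaly (15.7 to 95.2) and at least 71.5-fold lower in S62A lymphoma with a floor of 3 counts over the group.

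**Figure D4:**
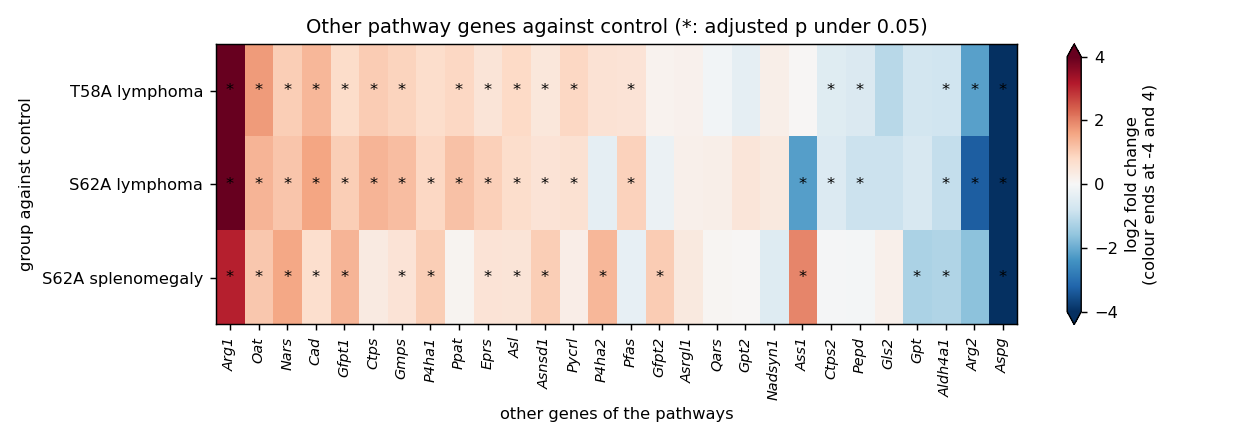
Log2 fold change against control (colour, ending at -4 and 4) of 28 of the 30 other pathway genes tested, in order of their mean change, for the 3 groups with mutant MYC; stars mark an adjusted p under 0.05. Oat, Nars and Cad are on the red, higher side in all 3 groups, Aldh4a1 and Aspg are on the blue, lower side, and Ass1 is lower in S62A lymphoma and higher in splenomegaly.

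Asns is a known target of the amino acid response, so 21 genes of that response were counted as well. Against control 6 rose and 3 fell in T58A lymphoma, 6 and 2 in S62A lymphoma, and 9 and 2 in splenomegaly, with medians of 0.43, 0.26 and 0.52. The genes that rose were 28.6%, 28.6% and 42.9% of the list, where 18.8%, 21.9% and 22.9% of all genes rose. Those that fell were 14.3%, 9.52% and 9.52%, where 17.4%, 22.2% and 26.3% of all genes fell. The amino acid carrier Slc7a5 rose by 2.61 ± 0.23, 2.49 ± 0.23 and 1.56 ± 0.22 (adjusted p = 2.38e-05, 2.02e-05 and 0.000206), and its partner Slc3a2 by 0.88 ± 0.21 in T58A lymphoma (adjusted p = 0.00779) and 1.54 ± 0.21 in splenomegaly (adjusted p = 0.000176). The mitochondrial folate enzyme Shmt2 rose in T58A lymphoma (1.09 ± 0.16, adjusted p = 0.000564) and S62A lymphoma (0.94 ± 0.16, adjusted p = 0.00105), and Mthfd2 in S62A lymphoma (1.01 ± 0.23, adjusted p = 0.00479). Shmt2 passed in splenomegaly as well (0.56, adjusted p = 0.0146). Mthfd2 passed in T58A lymphoma (0.90, adjusted p = 0.011) but not in splenomegaly (0.46, adjusted p = 0.114). The lipoprotein receptor Vldlr rose by 3.29 ± 0.44 and 3.83 ± 0.45 in T58A and S62A lymphoma (adjusted p = 0.000288 and 9.25e-05), and by 3.93 and 4.46 without control 3, the control with its highest level. In splenomegaly Chac1, a glutathione-degrading enzyme, rose by 4.98 ± 0.92 from 18 reads in the controls to 411 (adjusted p = 0.00119). Its 3 splenomegaly libraries were at 4.83, 3.68 and 19.995 CPM, and without the third the change was 3.88 (adjusted p = 0.00446). Nupr1 rose by 1.73 ± 0.40 (adjusted p = 0.00447).

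The same list held genes that went down. The cystine carrier Slc7a11 fell in T58A lymphoma, S62A lymphoma and splenomegaly, with changes of -2.37 ± 0.75, -3.56 ± 0.79 and -3.62 ± 0.79 (adjusted p = 0.0285, 0.00429 and 0.00328). Its controls were at 89.3, 72.2 and 126 CPM, the highest being control 3. The call in T58A lymphoma was lost without control 1 or 3 or T58A lymphoma 1 or 3 (adjusted p up to 0.0869), and the change was -3.46 without T58A lymphoma 2; in S62A lymphoma it was -4.20 without library 2. Sesn2 fell in T58A lymphoma (-1.26 ± 0.37, adjusted p = 0.0205) and S62A lymphoma (-0.97 ± 0.36, adjusted p = 0.0489), calls that were lost when any 1 of 3 and of 4 of the libraries was left out (adjusted p up to 0.107 and 0.232). The serine synthesis gene Psph fell in T58A lymphoma (-1.13 ± 0.28, adjusted p = 0.01) and Ddit4 in splenomegaly (-1.54 ± 0.37, adjusted p = 0.00576). Atf4 itself changed by 0.51 in T58A lymphoma (adjusted p = 0.0299), 0.26 in S62A lymphoma (adjusted p = 0.211) and 0.52 in splenomegaly (adjusted p = 0.0221).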

How the data were processed

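The 12 libraries were made from poly(A) RNA of mouse thymic tissue, extracted with Trizol and prepared with a directional kit, per the labels' protocols. For every RefSeq transcript the authors deposited a raw whole-number read count and an FPKM value, which they had scaled to transcript length and library. The submitters' processing notes name bcl2fastq 2.20.0.422, Bowtie 1.0.0, DESeq2 and the build mm9. How reads were counted, with or without strand, and where reads with several matches went, is not stated there. Reads shared with processed copies of Glud1 and Got2 could therefore not be separated. Starts on mm9 are printed as counted from 1, on the assumption that the tables count from 0. The reads of the transcripts used, 1 per symbol, summed to 9577373 to 22437969 per library.

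Groups came from the labels. The counts went into edgeR 4.0.16 under R 4.3.3: filterByExpr with a minimum count of 10, TMM factors and 1 quasi-likelihood fit (glmQLFit, glmQLFTest) of all 12 libraries by group, with p-values adjusted by Benjamini-Hochberg over 15606 genes in each of 6 comparisons. Standard errors are the log2 fold change over the root of F. The fit was tested on simulated data. Alternatives used DESeq2 1.42.0, limma 3.58.1 (voom with library weights, and log2 of FPKM + 0.1), other scaling, no filter, only the groups compared, controls of one title code, and each library left out. Differences of FPKM ratios between groups were tested by exact permutation in Python 3.11.15. Promoters came from RefSeq on GRCm38.p6, where all 8 members matched by symbol.

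The members and lists were chosen with earlier results of these data known, so their counts are descriptions. Named were all members and, from the pathway and amino acid response lists, up to 4 risen and 4 fallen genes with the smallest adjusted p in each comparison with control; Atf4 was added for its tie to Asns. Values of 2 pathway genes, and the 2 within-library measures that use them, are not reported here. Profiles were compared among genes of at least 20 CPM in some group, with an offset of 0.5 CPM. Genes with placeholder symbols, such as Gm, Rik or LOC, were left out of that comparison.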

Additional observations from a re-analysis of the deposited data

Results flagged for a closer look

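Within S62A animals, 4 members of 8 differed between the thymic mass with splenomegaly and the lymphomas, each by edgeR's test of the difference itself. Over all genes tested, 25.6% were higher and 28.6% lower in splenomegaly, so the count of members does not stand out. Got1 was lower in splenomegaly (-0.78 ± 0.15, adjusted p = 0.00142), in 3 of 3 libraries. Got2 was higher (0.54 ± 0.16, adjusted p = 0.0154), as were Aldh18a1 (0.67 ± 0.16, adjusted p = 0.00514) and Prodh (2.35 ± 0.52, adjusted p = 0.00303), each with no overlap between the groups. The groups also differ in their B cells and in endogenous MYC, as labelled, and plasma cell markers summed to at least 16527 CPM in splenomegaly against at most 838 in S62A lymphoma. The part of either in these 4 differences was not tested.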

How the results depend on the processing

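No paired analysis was possible because the labels give no replicate numbers that groups share. With 3 libraries a group, calls near the threshold depend on single libraries. Pycr1, Prodh and Got1 against control kept direction and call in every alternative run. Members that passed in T58A lymphoma against control were 5, with 3 to 6 when 1 library was left out and 3 with control 3 as the only control, which is then assumed to vary like the other groups; that setting called 1320 genes instead of 5646. Between the lymphomas 492 genes passed, against 1754 by DESeq2, 14 by limma-voom with library weights, 0 when only these 2 groups were fitted, and 139 to 783 with 1 library left out; no setting called a member there. Scaling by library size alone moved the median of all genes by -0.11 in splenomegaly against control and by less than 0.1 in the other comparisons.

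Directions turned for members that had not passed. Glul in S62A lymphoma against control was -0.05, 0.28 by limma-voom and -0.20 to 0.28 with 1 library left out; Glul in T58A lymphoma was -0.28 with control 3 alone. With 1 library left out, S62A against T58A lymphoma ranged from -0.18 to 0.093 for Got1 and from -0.64 to 0.38 for Pycr1, and splenomegaly against S62A lymphoma from -0.046 to 0.35 for Glud1, -0.24 to 0.71 for Asns and -0.80 to 0.047 for Pycr1. Glul in splenomegaly against control passed by DESeq2 (0.58, adjusted p = 0.0389) and limma-voom (0.74, adjusted p = 0.0032). Against S62A lymphoma it passed under 6 settings, of which 5 were DESeq2 size factors, library size alone, no filter, DESeq2 and limma on FPKM (adjusted p = 0.0313, 0.0492, 0.0448, 0.0168 and 0.041) and the other the fit of these 2 groups (adjusted p = 0.0164). Glud1 in T58A lymphoma against control passed by DESeq2 (adjusted p = 0.048), limma-voom (adjusted p = 0.00717) and the fit of these 2 groups alone (adjusted p = 0.016). Aldh18a1 in S62A lymphoma against control did not pass with library size alone (0.41, adjusted p = 0.0616) or by limma on FPKM (0.40, adjusted p = 0.0677). The cause of these changes was not tested.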

Other observations

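The tested genes within 50 kb on mm9 of Pycr1 and Prodh were read from the same fit. Asns had none. The remaining members had tested neighbours too, some of which passed, but these are not described here. Of 9 such neighbours of Pycr1, 3 rose in T58A lymphoma, 5 in S62A lymphoma and 2 in splenomegaly, where 3 fell. Over all genes tested, 18.8%, 21.9% and 22.9% rose in these groups, and 26.3% fell in splenomegaly. Mafg, which lies 2164 bases from Pycr1 on the same strand, rose in T58A lymphoma (1.85 ± 0.20, adjusted p = 6.56e-05), S62A lymphoma (1.75 ± 0.20, adjusted p = 6.56e-05) and splenomegaly (1.24 ± 0.19, adjusted p = 0.000378). Myadml2, 2360 bases away on the other side, passed as higher in all 3 groups (2.25 ± 0.70, 1.88 ± 0.70 and 2.88 ± 0.71, adjusted p = 0.0272, 0.0473 and 0.00631). Its lymphoma calls were lost without most single libraries, and without S62A lymphoma 1 its S62A value was 0.55 (adjusted p = 0.428). Notum, a secreted inhibitor of Wnt signalling 10118 bases from Pycr1, rose by 8.80 ± 0.63 and 8.45 ± 0.63 in T58A and S62A lymphoma (adjusted p = 6.34e-06 and 5.57e-06; 8.03 without T58A lymphoma 1). In splenomegaly, where Pycr1 rose as well, its value was -0.02 ± 0.83 (adjusted p = 0.989). Alyref and Anapc11 rose in S62A lymphoma (0.45 ± 0.15 and 0.93 ± 0.28, adjusted p = 0.0282 and 0.021); these calls were lost when any 1 of 5 and of 4 of the libraries was left out. Sirt7, Pcyt2 and Aspscr1 passed in neither lymphoma group and fell in splenomegaly (-0.54 ± 0.13, -0.81 ± 0.17 and -0.91 ± 0.11, adjusted p = 0.00664, 0.00233 and 8.89e-05). Npb passed in no group (0.62, 1.06 and -1.35).

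Dgcr6 lies on the opposite strand to Prodh, and the 3′ ends of both genes are 93 bases apart; whether counting used strand is not known here. It fell in T58A lymphoma (-1.71 ± 0.18, adjusted p = 6.02e-05), S62A lymphoma (-1.93 ± 0.18, adjusted p = 2.11e-05) and splenomegaly (-1.87 ± 0.18, adjusted p = 1.59e-05), where the changes of Prodh were -4.08, -4.52 and -2.17. The other tested neighbour, Rtn4r, was higher in splenomegaly (3.15 ± 0.90, adjusted p = 0.0133, and 0.0537 without control 3) and passed in neither lymphoma group (-0.72 and -0.42, adjusted p = 0.557 and 0.724).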
